A study of Mus musculus with 6 samples.

Results

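The genes described here encode molecular chaperones of the cytosol, the cytosolic and mitochondrial chaperonins, their co-chaperones and 2 heat shock transcription factors. They were taken from a list of 34 gene symbols, and each gene was represented by the probe set with the highest mean among those annotated to that gene alone. In this way 32 of the 34 were measured, out of 12394 genes on the arrays. No probe set was named for Hsp90ab1 or Hsf1 in the annotation used. Despite the cytosolic label, Hspa9, Hspd1 and Hspe1 encode proteins known to act in mitochondria.

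The series holds 6 Affymetrix arrays of regulatory T (Treg) cells, the CD4 T cells that restrain immune responses, sorted as CD4+CD25+YFP+ cells from spleen and lymph nodes of mice. The 3 arrays labelled GATA3KO came from Gata3F/FFoxp3YFP-Cre mice, in which both alleles of the transcription factor gene Gata3 are floxed. The 3 arrays labelled WT came from Gata3F/+Foxp3YFP-Cre mice, which carry 1 floxed and 1 intact allele. In every mouse the YFP-Cre fusion is expressed from the Foxp3 locus, so Cre acts in Foxp3-expressing cells, and the WT label covers heterozygous cells that also express Cre. Each group holds 3 mice according to the series' design text, and no ages are stated.

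The single Gata3 probe set read 9.83, 9.98 and 9.71 on the arrays labelled GATA3KO, against 9.57, 9.41 and 9.47 on those labelled WT, so it read higher, not lower, under the knockout label (log2 change 0.35 ± 0.07, SE, limma adjusted p = 0.0387). The labels do not say which part of Gata3 is floxed, and a probe set that lies elsewhere in the gene cannot test the genotype, so every direction below rests on the labels. Array medians lay between 6.06 and 6.11 on the log2 scale. Of the T cell genes, 9 of 10 listed were measured and 0 were dim, a term used here for a mean below the 40th percentile of all probe sets, while Foxp3 was dim in both groups. With 3 arrays a group, the number of arrays sets the precision.

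Chaperones bind proteins that are unfolded or still folding. HSP70 proteins take up unfolded clients with the help of J proteins, which start ATP hydrolysis, and of nucleotide exchange factors, which end the cycle. HSP90 then matures many kinases and steroid receptors, assisted by co-chaperones such as Stip1, Ahsa1 and Fkbp4. CCT, the chaperonin of the cytosol, is a ring of 8 different subunits that folds actin and tubulin. Heat and other protein damage activate the factor Hsf1, which binds heat shock elements, repeated GAA blocks in alternating orientation, and raises one group of these genes far more than others. The 13 genes treated as heat-inducible were Hspa1b, Hsph1, Hsp90aa1, Hspd1, Hspe1, Dnaja1, Dnajb1, Dnajb4, Bag3, Stip1, Ahsa1, Fkbp4 and Chordc1. Of the other measured genes, 17 were treated as constitutive, and Hsf2 and Fkbp5 were placed in neither class.

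The letters of a heat shock element were looked for in RefSeq promoters of assembly GRCm38.p6, from 250 bases before to 50 bases after each listed start site. A stretch is shown for each gene with the 3-block element and for some of those with a shorter form only. The 3-block element was searched on both strands as GAA, TTC and GAA with any 2 bases between neighbouring blocks. It was held by 4 of the 12 heat-inducible genes and by 1 of the 13 constitutive genes found in the table, against 0.662% of all 27025 genes. Capitals mark the element in each 30-base stretch.
Hspe1, chr1:55088053-55088082, plus strand: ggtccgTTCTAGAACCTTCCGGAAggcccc
Hspd1, chr1:55088053-55088082, minus strand: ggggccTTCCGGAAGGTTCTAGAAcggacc
Chordc1, chr9:18292260-18292289, plus strand: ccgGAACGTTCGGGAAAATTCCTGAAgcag
Hsph1, chr5:149636287-149636316, minus strand: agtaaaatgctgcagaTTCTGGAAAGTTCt
Dnajb6, chr5:29735844-29735873, plus strand: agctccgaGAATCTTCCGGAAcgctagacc
Hspe1 and Hspd1, the neighbouring genes of the mitochondrial chaperonin pair, share 1 element, read from opposite strands between the Hspe1 start and 1 of the 2 listed Hspd1 starts. It begins 89 bases before the Hspe1 start, while the Chordc1 element spans the start site and that of Hsph1 begins at base 37 after it.

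A shorter form with 2 such blocks, GAANNTTC or TTCNNGAA, which every 3-block element also holds, was found in 9 of the 12 heat-inducible and 4 of the 13 constitutive genes, against 17.0% of all genes. Dnajb4, Bag3, Cct2, Cct5 and Cct6a held this form without the longer one and are not shown. The shorter form is shown for a J protein, an HSP90 co-chaperone and the stress-induced HSP70 gene, none of which had the longer form in this window.
Dnaja1, chr4:40722333-40722362, plus strand: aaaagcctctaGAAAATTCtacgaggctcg
Fkbp4, chr6:128438789-128438818, minus strand: ccgcttctctaGAAAGTTCtccgctcccgc
Hspa1b, chr17:34959324-34959353, minus strand: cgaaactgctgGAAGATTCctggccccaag
A match describes these letters only and says nothing of binding. Hspa8, Hspa9, Hsp90aa1, Hsp90ab1, Hsf1, Cct4 and St13 were not in the promoter table.

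The comparison asked how the chaperone genes differ between Treg cells with both Gata3 alleles floxed and those with 1. None of the 32 genes passed the threshold with all 6 arrays (limma, Benjamini-Hochberg adjusted p under 0.05 over all genes), where 2.21% of all genes did, 1.44% as higher and 0.766% as lower. The smallest adjusted p was that of Dnaja1, the only gene under 0.1, where 1.47% of all genes were lower at that level. At an unadjusted p under 0.05, 9 were lower and 1 was higher in the arrays labelled GATA3KO, against 5.80% and 8.63% of all genes. The log2 change was below 0 in 23 of 32, against 47.0% of all genes, with a median of -0.07 (0.0078 over all genes). In sorted bulk cells, a smaller share of cells with a transcript and less of it per cell cannot be told apart.

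**Figure D1:**
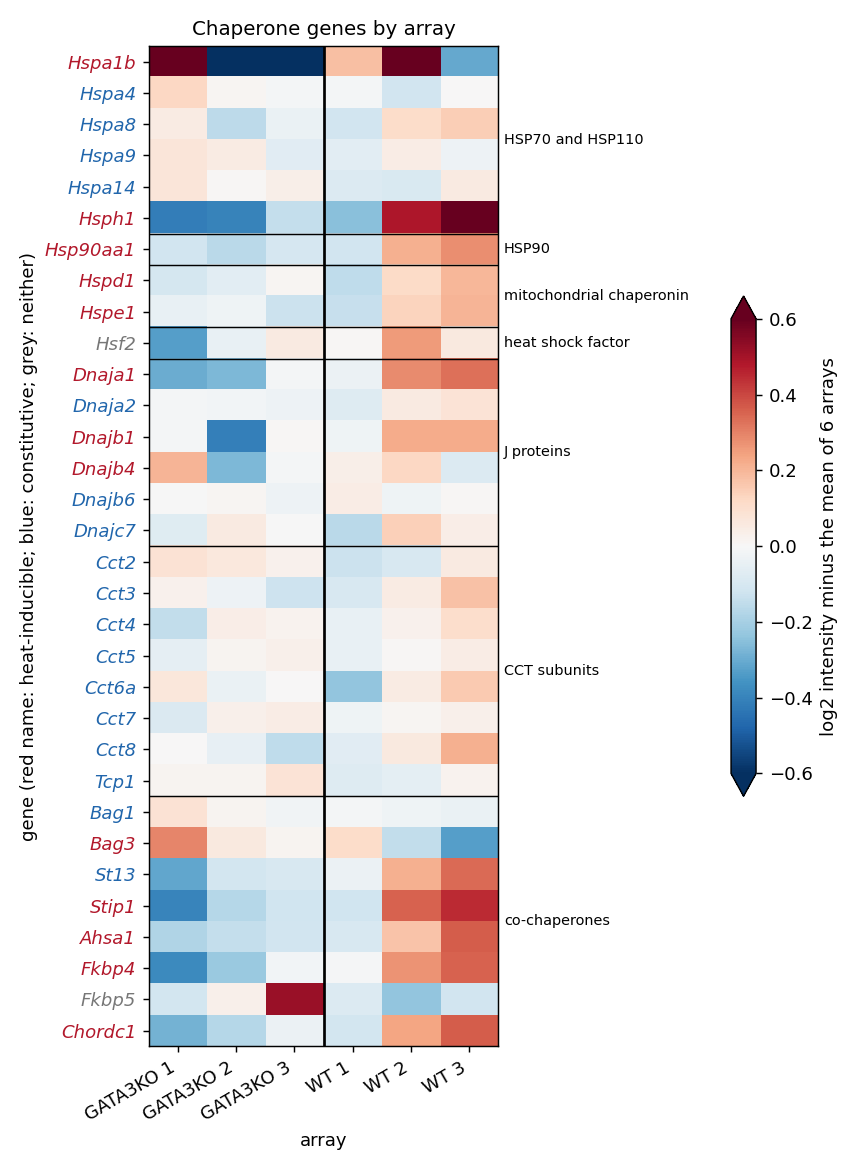
Log2 intensity of each of the 32 measured chaperone genes on each array, as the difference from that gene's mean over the 6 arrays (colour, saturated beyond 0.6 in either direction). Rows are grouped by role, columns hold the 3 GATA3KO arrays and then the 3 WT arrays, and in 10 of the 13 heat-inducible genes (red names) WT 2 and WT 3 are both above all GATA3KO arrays.

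Log2 changes lay lower in the heat-inducible class than in the constitutive class, a difference given here by counts and medians with no test. In the heat-inducible class 12 of 13 log2 changes were below 0, with a median of -0.29 and a range from -0.76 to 0.24, and 8 had an unadjusted p under 0.05, all of them below 0. In the constitutive class 10 of 17 were below 0, with a median of -0.0099 and a range from -0.35 to 0.12, and 1 gene was lower and 1 higher at that level. On the probe sets used, a log2 change of -0.25 or lower was seen in 8 of 13 heat-inducible and 1 of 17 constitutive genes. The share of all genes was 3.11%, and Hsp90aa1 lay just short of that size. The constitutive gene Hspa8 had changes of -0.44 and -0.29 on other probe sets.

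**Figure D2:**
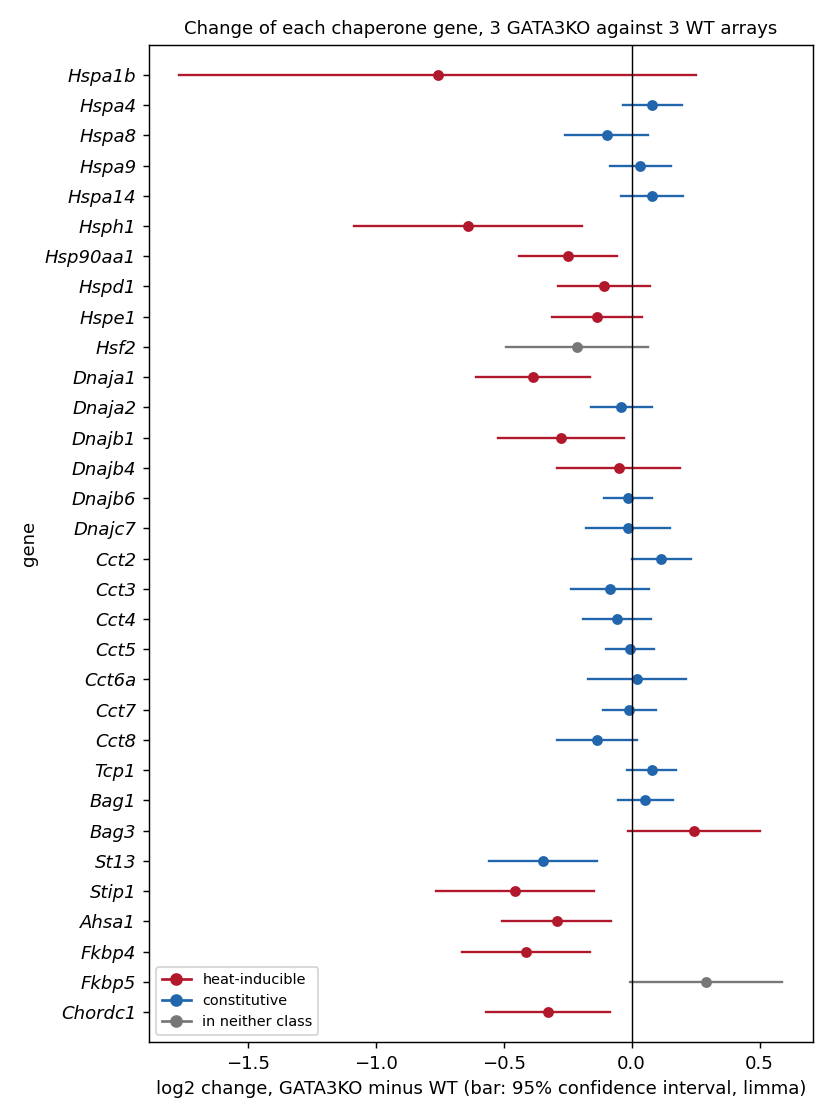
Log2 change of each measured chaperone gene, arrays labelled GATA3KO minus arrays labelled WT (point), with limma's 95% confidence interval (bar), n = 3 arrays each. Heat-inducible genes are red, constitutive genes blue and genes in neither class grey. The intervals of Hsph1, Hsp90aa1, Dnaja1, Dnajb1, St13, Stip1, Ahsa1, Fkbp4 and Chordc1 lie below 0 before any adjustment, and the points of the CCT subunits lie between -0.14 and 0.12.

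Among the HSP70 and HSP110 genes, the stress-induced Hsph1 and Hspa1b had the most negative log2 changes, and neither passed the threshold. Hsph1 encodes HSP110, a nucleotide exchange factor that helps HSP70 to dissolve aggregates. It read 9.80, 9.81 and 10.07 on the arrays labelled GATA3KO, against 9.96, 10.70 and 10.93 on those labelled WT. WT replicates 2 and 3 were above every array labelled GATA3KO, but WT replicate 1 lay among them, so the groups overlapped. The log2 change was -0.64 ± 0.20 (SE, limma adjusted p = 0.154). The other Hsph1 probe set read 7.91, 8.03 and 8.06 under GATA3KO, against 8.30, 9.01 and 9.14 under WT, without overlap, and had a log2 change of -0.82 ± 0.18 (limma adjusted p = 0.0524 over all single-gene probe sets).

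Hspa1b, the HSP70 gene that heat induces most, was the most variable of these genes. It read 12.34, 10.95 and 10.62 on the arrays labelled GATA3KO, against 11.86, 12.94 and 11.38 on those labelled WT. GATA3KO replicate 1 and WT replicate 2 were high, and the groups overlapped. The pooled SD within groups was 0.858 on the log2 scale, which only 4 of the 12394 genes exceeded. Its log2 change of -0.76 ± 0.45 (SE, limma adjusted p = 0.509) has a 95% confidence interval from -1.77 to 0.25. Single arrays set its size: the change was -1.28 without GATA3KO replicate 1, -0.42 without GATA3KO replicate 3 and -0.32 without WT replicate 2, and -1.25 with array quality weights, and it passed in none of these fits. Its 2 other probe sets had log2 changes of -0.87 and -0.88. Hspa1a, its near-identical neighbour and not one of the 34 genes, read 9.81, 8.31 and 7.72 under GATA3KO, against 9.07, 10.54 and 8.52 under WT (-0.77 ± 0.56, SE, limma adjusted p = 0.606). The same arrays were high for both, and since a probe set of one may also read the other, these values are not independent and their assignment to either gene is uncertain.

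The constitutive HSP70 genes had small changes on the probe sets used. Hspa8 encodes HSC70, the HSP70 of unstressed cells, and read 13.06, 12.85 and 12.97 under the GATA3KO label, against 12.89, 13.12 and 13.15 under WT. The groups overlapped, and the log2 change was -0.10 ± 0.07 (SE, adjusted p = 0.619 by limma). Its 3 other probe sets gave changes of -0.44, -0.29 and -0.25, with unadjusted p of 0.0135, 0.0827 and 0.0029 by limma. On the last the groups did not overlap, and the adjusted p over all single-gene probe sets was 0.0951 by limma. The size for Hspa8 thus depends on the probe set. Hspa4, a relative of HSP110, Hspa9, the mitochondrial HSP70 mortalin, and Hspa14, an HSP70 of the ribosome-associated complex, had changes of 0.08, 0.03 and 0.08. None had an unadjusted p under 0.05 on the probe set used. The other Hspa4 probe sets gave 0.06 and -0.21, the latter with an unadjusted p of 0.0418 by limma.

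Hsp90aa1, the stress-inducible HSP90 gene, read 11.99, 11.94 and 12.004 on the arrays labelled GATA3KO, against 11.99, 12.31 and 12.38 on those labelled WT. On this probe set WT replicate 1 fell inside the narrow range of the arrays labelled GATA3KO, while WT replicates 2 and 3 were above it. The log2 change was -0.25 ± 0.09 (SE, limma adjusted p = 0.196), and the 2 other probe sets gave -0.26 and -0.20. On these the arrays labelled GATA3KO spread more widely, from 10.85 to 11.04 and from 10.96 to 11.22. WT replicate 1, at 11.01 and 11.06, again lay inside their range.

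Of the 32 genes 3 were lower under the GATA3KO label without overlap of the groups, a share close to the 8.51% of all genes. These 3, St13, Ahsa1 and Fkbp4, were all co-chaperones. None of the 32 genes was higher without overlap, against 11.3% of all genes. Fkbp4 encodes FKBP52, an immunophilin of steroid receptor complexes. It read 7.64, 7.80 and 8.01 on the arrays labelled GATA3KO, against 8.02, 8.30 and 8.38 on those labelled WT, a log2 change of -0.41 ± 0.11 (SE, limma adjusted p = 0.101). GATA3KO replicate 3 and WT replicate 1 lay almost together, at the edges of their groups. The other Fkbp4 probe set read 6.56, 6.41 and 6.63 under GATA3KO, against 6.79, 6.76 and 6.68 under WT. Its change was -0.21 ± 0.08 (SE, unadjusted p = 0.0312 by limma), and WT replicate 1 was there the highest WT array. Ahsa1, the activator of the HSP90 ATPase, read 9.40, 9.43 and 9.46 under GATA3KO, against 9.49, 9.75 and 9.94 under WT (-0.29 ± 0.10, adjusted p = 0.171 by limma). St13, the HSC70-interacting protein Hip, read 8.58, 8.78 and 8.79 under GATA3KO, against 8.85, 9.10 and 9.23 under WT (-0.35 ± 0.09, adjusted p = 0.106 by limma). On the probe sets used, it was the only constitutive gene with an unadjusted p under 0.05 and a negative change. On the probe sets used, WT replicate 1 was the lowest WT array in Fkbp4, Ahsa1 and St13.

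Stip1 encodes Hop, the adaptor that passes clients between HSP70 and HSP90. It read 7.23, 7.46 and 7.51 on the arrays labelled GATA3KO, against 7.51, 7.98 and 8.08 on those labelled WT, with WT replicate 1 level with the highest array labelled GATA3KO. Its log2 change was -0.46 ± 0.14 (SE, limma adjusted p = 0.138). Chordc1, an HSP90-binding protein, showed the same order of WT arrays, at 10.44, 10.56 and 10.70 under GATA3KO, against 10.62, 10.96 and 11.09 under WT (-0.33 ± 0.11, adjusted p = 0.184 by limma).

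A few co-chaperone genes had changes above 0. Bag3, an exchange factor of HSP70 that links it to autophagy, was the only heat-inducible gene with a positive change. It read 7.74, 7.50 and 7.46 under the GATA3KO label, against 7.56, 7.30 and 7.11 under WT, and WT replicate 1 was here the highest WT array. The groups overlapped (0.24 ± 0.12, SE, limma adjusted p = 0.377). Fkbp5 encodes FKBP51, an inhibitor of steroid receptor complexes that glucocorticoids induce, and read 9.28, 9.42 and 9.91 under GATA3KO, against 9.30, 9.15 and 9.27 under WT. Only replicate 3 of the arrays labelled GATA3KO stood clearly above the rest (0.29 ± 0.13, limma adjusted p = 0.362). Bag1, another exchange factor, had a change of 0.05.

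The J proteins all had changes below 0, though most were near 0. Dnaja1, a partner of HSP70 in the cytosol, had an adjusted p of 0.0882 by limma. It read 11.30, 11.33 and 11.59 on the arrays labelled GATA3KO, against 11.56, 11.88 and 11.93 on those labelled WT. WT replicate 1 lay just below the highest array labelled GATA3KO, and the log2 change was -0.38 ± 0.10 (SE). Its second probe set separated the groups, at 9.59, 9.74 and 9.96 under GATA3KO, against 10.06, 10.34 and 10.34 under WT, and was the only one of 72 probe sets of these genes to pass when each probe set was fitted singly (-0.48 ± 0.10, adjusted p = 0.0464 by limma), where 0.677% of all single-gene probe sets passed as lower. Dnajb1, which directs HSP70 to aggregates, read 9.99, 9.59 and 10.01 under GATA3KO, against 9.97, 10.22 and 10.22 under WT (-0.28 ± 0.11, limma adjusted p = 0.278). GATA3KO replicate 2 was the lowest array for Dnajb1, and without it the change was -0.14. Dnaja2, Dnajb4, Dnajb6 and Dnajc7 had changes from -0.05 to -0.01. That of Dnajb6, the constitutive gene with the 3-block element shown above, was -0.02 ± 0.04 (SE). Its other probe sets gave -0.08, -0.07 and -0.20, the last with an unadjusted p of 0.0271 by limma.

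The chaperonin genes had small changes. Hspd1 encodes HSP60 and Hspe1 its lid HSP10. Hspe1 read 11.29, 11.30 and 11.20 on the arrays labelled GATA3KO, against 11.19, 11.47 and 11.54 on those labelled WT (-0.13 ± 0.08, SE, limma adjusted p = 0.502). Hspd1 had 10.68, 10.72 and 10.79 under GATA3KO, against 10.63, 10.90 and 10.98 under WT (-0.11 ± 0.08, adjusted p = 0.622 by limma). In both genes of the shared promoter WT replicate 1 was the lowest of all 6 arrays and WT replicates 2 and 3 the highest.

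The 8 CCT subunit genes, Tcp1, Cct2, Cct3, Cct4, Cct5, Cct6a, Cct7 and Cct8, had a median log2 change of -0.0082, with 3 above and 5 below 0. Cct2 had the highest change, at 11.78, 11.76 and 11.72 under GATA3KO, against 11.56, 11.60 and 11.74 under WT (0.12 ± 0.05, SE, limma adjusted p = 0.341). Cct8 had the lowest, at 10.94, 10.89 and 10.79 under GATA3KO, against 10.88, 10.9999 and 11.16 under WT (-0.14 ± 0.07, adjusted p = 0.427). Both overlapped between groups. Cct3 changed by -0.09 on the probe set used and by -0.19 to -0.04 on its others. The change of -0.19 had an unadjusted p of 0.0269 by limma. Cct7 changed by -0.01 on the probe set used and by 0.13 on its other. Over the 8 subunits the 95% confidence intervals ran from -0.29 (Cct8) to 0.23 (Cct2) at their widest, and that of Cct5 from -0.10 to 0.09. In all 8 subunits WT replicate 1 was the lowest WT array.

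Hsf2, a relative of Hsf1 that can bind the same elements, was measured on a dim probe set, at 4.16, 4.45 and 4.54 under GATA3KO, against 4.50, 4.75 and 4.55 under WT. The groups overlapped (-0.21 ± 0.12, SE, limma adjusted p = 0.501).

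WT replicate 1 stood apart from the other WT arrays over these genes. It was the lowest WT array in 24 of the 32 genes and in 10 of the 13 heat-inducible ones, against 32.0% of all genes. In 10 heat-inducible genes WT replicates 2 and 3 were both above all arrays labelled GATA3KO, against 12.8% of all genes. In 8 of these WT replicate 1 was not above them, a pattern held by 4.25% of all genes. Replicate 1 was also the lowest array labelled GATA3KO in Hsph1, Dnaja1, St13, Stip1, Ahsa1, Fkbp4 and Chordc1. On the probe sets used, the values of these genes rose with the replicate number in both groups. On the other Fkbp4 probe set they did not. Hspd1, Tcp1, Cct5 and Cct7 showed the same order in both groups, and the share of all genes with it was not counted. The mean deviation of the 13 heat-inducible genes from their 6-array means was -0.08, -0.23 and -0.13 in the arrays labelled GATA3KO, against -0.06, 0.29 and 0.21 in those labelled WT. The same mean over the 17 constitutive genes was -0.0049, -0.0051 and -0.02 under GATA3KO, against -0.07, 0.02 and 0.08 under WT. By this measure WT replicate 1 lay just above the arrays labelled GATA3KO in the heat-inducible class, nearer to them than to the other WT arrays. The median deviation of that class placed it among them, at -0.09 against -0.11, -0.17 and -0.03 under GATA3KO. In the constitutive class the mean deviation of WT replicate 1 was below those of the arrays labelled GATA3KO.

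**Figure D3:**
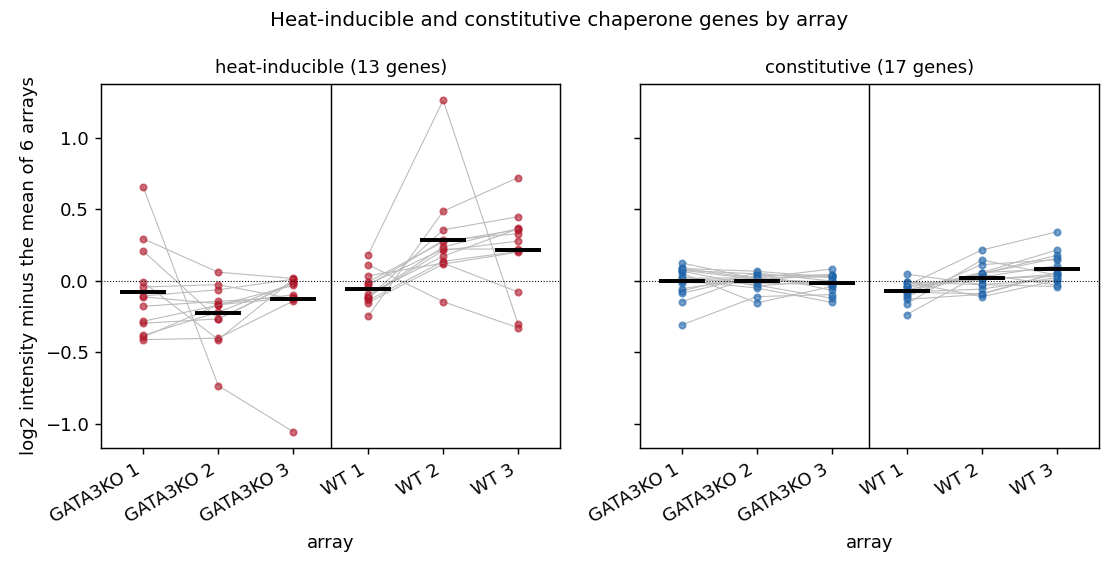
Log2 intensity of each heat-inducible (left, 13) and constitutive (right, 17) gene on each array, as the difference from the gene's mean over 6 arrays; points are genes, grey lines join a gene within a group, and black bars are the means over genes. The heat-inducible means are -0.08, -0.23 and -0.13 in GATA3KO arrays 1 to 3, against -0.06, 0.29 and 0.21 in WT arrays 1 to 3.

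The number of genes past the threshold depended on that array. Without WT replicate 1, 9 of the 32 genes were lower past the threshold and 0 were higher, where 0.847% of all genes were lower and 1.33% higher. They were Hsph1, Hsp90aa1, Hspe1, Dnaja1, St13, Stip1, Ahsa1, Fkbp4 and Chordc1, of which all but St13 belong to the heat-inducible class. Hsph1 then changed by -0.92 (adjusted p = 0.00264), Hsp90aa1 by -0.37 (0.00445), Stip1 by -0.63 (0.012) and Dnaja1 by -0.50 (0.0165), by limma with 3 arrays against 2. With any one of the other 5 arrays left out, 0 of the 32 passed. Among changes that passed in none of these fits, that of Hspd1 was -0.21 without WT replicate 1 and -0.03 without WT replicate 3. Without WT replicate 3 those of Cct8 and Bag3 were -0.06 and 0.14. That of Fkbp5 was 0.10 without GATA3KO replicate 3, and that of Hsf2 was -0.10 without GATA3KO replicate 1. Without WT replicate 3 the changes of Ahsa1 and Hspe1 were -0.18 and -0.07. With all 6 arrays and array quality weights, Hsph1, Dnaja1, St13 and Fkbp4 passed as lower, where 1.49% of all genes did. On the probe sets used, the array left out is the WT array that was lowest in these 9 genes. The fit without it thus gives the difference from WT replicates 2 and 3 alone.

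**Figure D4:**
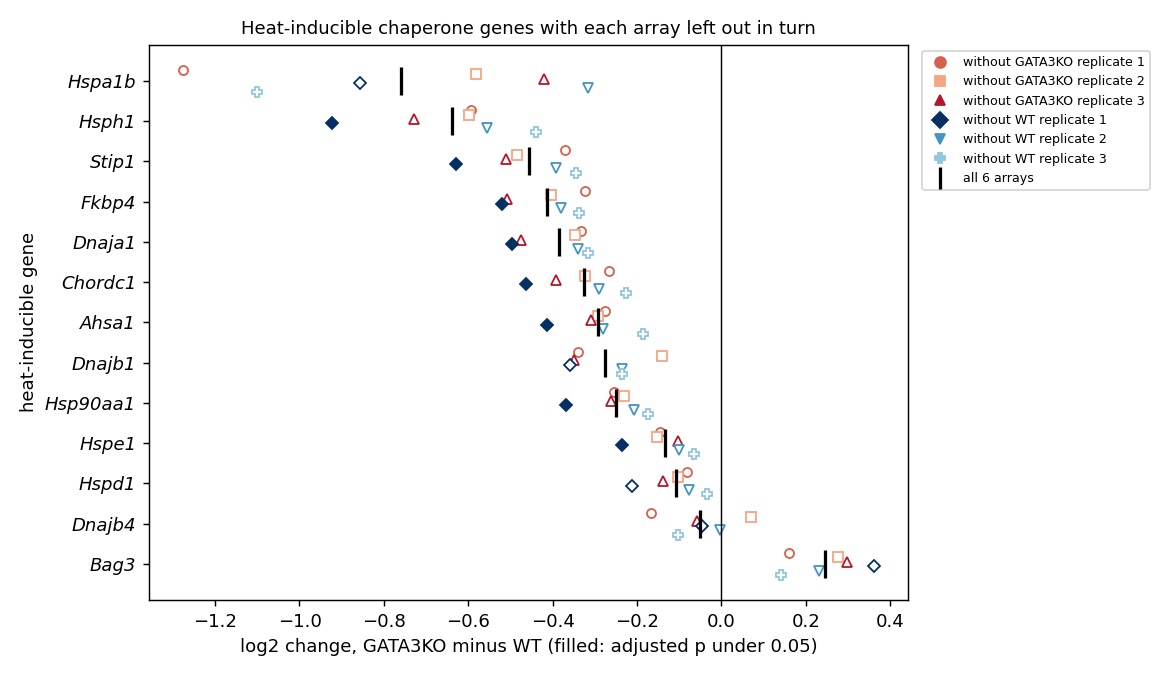
Log2 change, arrays labelled GATA3KO minus arrays labelled WT, of the 13 heat-inducible genes with all 6 arrays (black tick) and after leaving out each array (symbols, filled where limma's adjusted p is under 0.05). Filled symbols occur only without WT replicate 1, in 8 genes, and Bag3 is the only gene with all symbols above 0.

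Most genes with several probe sets had changes of one sign on them. Of 20 genes with at least 2 probe sets that were not dim, 15 had changes of 1 sign on all of them. Of the 8 heat-inducible genes among these, 7 had every change below 0, the exception being Dnajb4, whose probe sets gave -0.05 and 0.08.

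Other chaperone genes had changes spread around 0. Of 68 listed genes outside the 34, 56 were measured, 28 with a change above and 28 below 0, and the median was -0.0026. With all 6 arrays 0 passed the threshold by limma, and an unadjusted p under 0.05 was reached by 2 with a positive and 5 with a negative change. Hspb11, a gene named for its likeness to small heat shock proteins, read 8.12, 8.11 and 8.12 on the arrays labelled GATA3KO, against 7.67, 7.82 and 7.93 on those labelled WT (0.31 ± 0.07, SE, adjusted p = 0.0628). Hsp90b1, the HSP90 of the endoplasmic reticulum, read 10.44, 10.60 and 10.60 under GATA3KO, against 10.67, 10.92 and 10.91 under WT (-0.29 ± 0.07, adjusted p = 0.0818), and it alone of the 56 passed without WT replicate 1 (-0.37, adjusted p = 0.0146 by limma). Hsbp1, a binding partner of heat shock factor trimers, and Clpx, a mitochondrial unfoldase, had changes of -0.14 and -0.17 that did not pass.

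Immediate early genes, markers of the sorted cells and markers of other cells also varied between arrays. The mean deviation of 26 immediate early genes was 0.19, -0.08 and -0.05 in the arrays labelled GATA3KO, against 0.08, 0.02 and -0.16 in those labelled WT. Of them Dusp1, a MAP kinase phosphatase, rose (0.46 ± 0.06, SE, limma adjusted p = 0.0081), and 0 fell past the threshold.

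Of 15 Treg genes 13 were measured, 11 with a change above 0 and a median log2 change of 0.18. Tnfrsf4, the costimulatory receptor OX40, rose (0.32, adjusted p = 0.0186 by limma), and Nrp1, the surface receptor neuropilin-1, fell (-0.77, adjusted p = 0.0015 by limma). The groups did not overlap in 8 of the 13, with 7 higher and 1 lower under the GATA3KO label, beside the 11.3% and 8.51% of all genes given above. The mean level of the Treg genes was 9.20 to 9.27 under GATA3KO, against 9.12 to 9.22 under WT. Of the 9 T cell genes 0 passed, with the smallest p for Cd247, the CD3 zeta chain (-0.17, adjusted p = 0.109 by limma).

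The mean level of 13 myeloid and dendritic cell genes was 5.46 to 5.79 under GATA3KO, against 5.21 to 5.45 under WT, and Lyz1, a lysozyme gene, alone of them rose past the threshold (1.44, limma adjusted p = 0.0468). That of 12 neutrophil and mast cell genes was 4.74 to 5.11 under GATA3KO, against 4.59 to 4.69 under WT, with 0 past the threshold, 9 of 12 dim and the smallest p for S100a9, a calcium-binding protein of neutrophils (1.10, limma adjusted p = 0.113). The mean of 11 B cell genes, 6 of them dim, was 5.49 to 5.58 under GATA3KO, against 5.37 to 5.45 under WT. Of them Cd22, an inhibitory receptor of B cells, and Cd74, the invariant chain of MHC class II, rose past the threshold (1.15 and 0.42, limma adjusted p = 0.0015 and 0.0315). The B cell list as a whole was split, with 6 changes above and 5 below 0 and a median of 0.03. The mean of 8 CD8 T and NK cell genes, 3 of them dim, was 5.24 to 5.37 under GATA3KO, against 5.43 to 5.57 under WT. Their changes were split, with 4 above and 4 below 0 and a median of -0.04. Of them 0 passed the threshold, and Klrk1, the receptor NKG2D, had the smallest p (-0.57, limma adjusted p = 0.121). Of 5 red cell and platelet genes 0 passed and 4 were dim, and Ppbp, a platelet chemokine, had the smallest p (0.15, limma adjusted p = 0.568). The part of these in the chaperone values was not tested.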

How the data were processed

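Each array was summarised by the authors to log2 intensities by RMA (background correction, quantile normalization, probe summary), as the submitters' processing notes name it without a version. The deposited table holds 22690 probe sets, and the log2 scale was taken from its range. Probe sets were named through the platform annotation (20393 with 1 gene), and the highest-mean one stood for each of 12394 genes. No filter was applied. Groups were compared with limma 3.58.1 in R 4.3.3 (lmFit, eBayes with an intensity trend), two-sided, GATA3KO minus WT, adjusted over all genes by Benjamini-Hochberg at 0.05, with SEs and 95% confidence intervals from limma; the exact permutation test of 3 arrays against 3 was not used, since it cannot pass that threshold. The script was tested on simulated data. Same-numbered arrays were compared unpaired: the correlations of their deviations from group means were 0.04, -0.02 and 0.07. Alternatives covered variance, dim probe sets (mean below 5.25), normalization, weights, probe set choice, the threshold and each array left out. The genes, the classes and the lists were chosen with earlier results of these data known. All 34 genes are named. Of the other chaperone list, which had no gene past the threshold, the 4 with the smallest p are named. Of each immediate early or marker list, the genes past the threshold are named, or, where there are none, the gene with the smallest p. Figures were drawn with matplotlib 3.10.9. P-values measure the spread between mice within a group as the design text describes them.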

Additional observations from a re-analysis of the deposited data

How the results depend on the processing

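The median change of the 32 genes was -0.13 to -0.03 with an array left out, and that of the heat-inducible genes was -0.41 to -0.23. The constitutive median was -0.03 to 0.0065, the CCT median -0.06 to 0.01, and the heat-inducible minus constitutive median, -0.28 with all arrays, was -0.38 to -0.23. It was -0.27 with a narrower class of 7 heat-inducible genes. Their mean deviation was 0.05, -0.31 and -0.19 in the arrays labelled GATA3KO, against -0.01, 0.35 and 0.12 in those labelled WT. In that class GATA3KO replicate 1 thus lay above WT replicate 1. With an array left out, 0 to 9 of the 32 genes passed, all lower and all 9 without WT replicate 1. Of the 32 genes 4 passed as lower with array quality weights (Hsph1, Dnaja1, St13 and Fkbp4), 1 at an adjusted p under 0.1 and 1 with probe sets fitted singly, an alternative chosen after seeing the data. With the replicate number as a block, 6 of the 32 passed as lower (Hsph1, Dnaja1, St13, Stip1, Fkbp4 and Chordc1). Of all 12394 genes, 134 did so. On the probe sets used, the values of these 6 genes rose with the replicate number in both groups. Those of Ahsa1, Hspd1, Tcp1, Cct5 and Cct7, which did not pass with the block, did so too. The numbers share only a label, however, and not every array correlated best with its own number. Over all genes 274 passed, 179 higher and 95 lower. Without the intensity trend this was 54 (31 and 23), and with array quality weights 585 (400 and 185). With the block it was 368 (234 and 134), and at an adjusted p under 0.1 525 (343 and 182). With an array left out it was 62 to 270, with 35 to 165 higher and 24 to 105 lower. The cause of these shifts was not tested.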

Other observations

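The genes whose values over the 6 arrays were most like the mean of the heat-inducible chaperone genes were Selp, Ptprr, C5ar1, Art4 and Amot, with Pearson correlations from 0.97 to 0.99, as a description of 6 arrays that share 2 groups. Ptprr, C5ar1 and Art4 were dim, and Amot, with a mean of 5.32, lay just above the dim level. Of 12362 genes outside the list, 100 had a correlation of 0.9 or more. Selp, which encodes the adhesion receptor P-selectin, read 5.81, 5.38 and 5.73 on the arrays labelled GATA3KO, against 5.74, 6.45 and 6.39 on those labelled WT (log2 change -0.55 ± 0.19, SE, limma adjusted p = 0.189).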
